A study of Mus musculus with 15 samples.

Results

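The comparison set the aortic transcriptome of orchiectomized mice that carried a dihydrotestosterone (DHT) pellet against that of intact mice, across all genes, to show where DHT replacement left expression above or below the intact level. It used the libraries labelled orchiectomy with DHT (5 mice) and control (5 mice), which are 10 of the 15 libraries of the series. The remaining 5 libraries, from orchiectomized mice without DHT, gave the position of the androgen-deprived level. All mice were 10-month-old male C57BL/6 mice of wild-type genotype. All of them, the control mice included, received aldosterone at 200 µg/kg per day by osmotic minipump and drinking water with 0.9% NaCl and 0.2% KCl (Aldo-salt) for 7 days, starting 2 weeks after orchiectomy or a sham operation. No group without Aldo-salt was part of the series, so each difference is one between mice under Aldo-salt. The labels give no DHT dose, no plasma androgen level and no hour of harvest. Each library came from a whole aorta, so fewer cells of a type and less RNA per cell cannot be told apart.

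Androgens act through a ligand-activated transcription factor that binds DNA elements closely related to those of the glucocorticoid and mineralocorticoid receptors. The testis supplies most circulating androgen in male mice, and DHT is the strongest natural androgen and cannot be converted to estrogen. A pellet releases hormone without the pulses and feedback control of the testis, so the intact level of a gene need not be the level that it reaches under replacement. The aortic wall holds endothelial cells, smooth muscle cells, adventitial fibroblasts and resident leukocytes, with perivascular fat and a thin mesothelial covering in parts of the vessel.

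The control libraries held 10029495 to 13713880 gene-assigned reads, the orchiectomized libraries 9574333 to 13816864 and the DHT libraries 8268957 to 11822945. Levels are given as CPM (read counts relative to library size), scaled for library composition, and 10 counts correspond to between 0.687 and 1.28 CPM. The smooth muscle genes *Acta2* and *Myh11*, which define the aortic media, were at 5565 ± 716 and 4797 ± 905 CPM in the control mice and at 6854 ± 759 and 6288 ± 598 CPM with DHT (mean ± SD, n = 5). Orchiectomized replicate 2 stood apart from the other libraries, with summed cardiac muscle markers at 8506 CPM against 98.7 to 1740 CPM in the other 14 libraries. That library is in neither group of the comparison but shares the filter, the normalization and the estimate of the spread, and counts without it are given below.

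Of 14121 genes tested, 498 (3.53%) differed between the DHT-replaced and the intact mice at an unadjusted P value under 0.01, the threshold of the study, where 141 would pass by chance alone. DHT-replaced mice had 214 genes (1.52%) above and 284 (2.01%) below the intact level. The median log2 difference was 0.59 over the higher and -0.72 over the lower genes, against -0.0029 over all genes tested. After Benjamini-Hochberg adjustment over all genes tested, 37 genes (0.262%) had a P value under 0.05 by edgeR, 16 of them higher and 21 lower. Values of the DHT and control libraries did not overlap in 35 of these 37 genes, in 263 of the 498 and in 505 (3.58%) of all genes tested. Leaving out control replicate 5, DHT replicate 3 or DHT replicate 5 reduced the 498 genes to 283, 328 and 323. The 37 genes became 102 without orchiectomized replicate 2, 26 to 38 without orchiectomized replicate 1 or 3 or DHT replicate 2, and 3 to 19 without any other library. *Vstm2b*, *Fam107a* and *Mthfd2* passed this stricter threshold of 0.05 in all 15 fits that each left out 1 library.

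The 498 genes were divided by where the orchiectomized mean lay, a description of fitted means that share the control mice and carries no test of its own. For 220 genes (56 higher and 164 lower with DHT) the orchiectomized mean was on the other side of the control mean, with the DHT mean past it. Only 7 of these 220 were called between orchiectomized and control mice. For the rest, the side is the sign of a difference that was not called. For 265 genes (147 higher and 118 lower) both orchiectomized groups lay on the same side of control and the DHT mean was farther out. For 13 genes (11 higher and 2 lower) the orchiectomized mean was the farther one, so that DHT left expression short of the intact level. Of the 498 genes, 27 were also called between orchiectomized and control mice and 471 were not, where 3.22% of all genes tested were called in that comparison. The genes were selected on the DHT difference and the comparisons share the control mice, so nothing is read from the smaller median absolute log2 difference after orchiectomy (0.17). The first class held 138 and 145 genes without control replicate 4 or 5. The second held 126, 170, 436 and 164 genes without control replicate 5 or DHT replicates 3, 4 or 5, and the last held 31, 7 and 21 without control replicate 4 or DHT replicates 1 or 4. Among the genes nearest to the threshold, *Themis2*, with a log2 difference of -0.98, lay just inside it and *Lgals7*, with -1.33, just outside it.

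**Figure D1:**
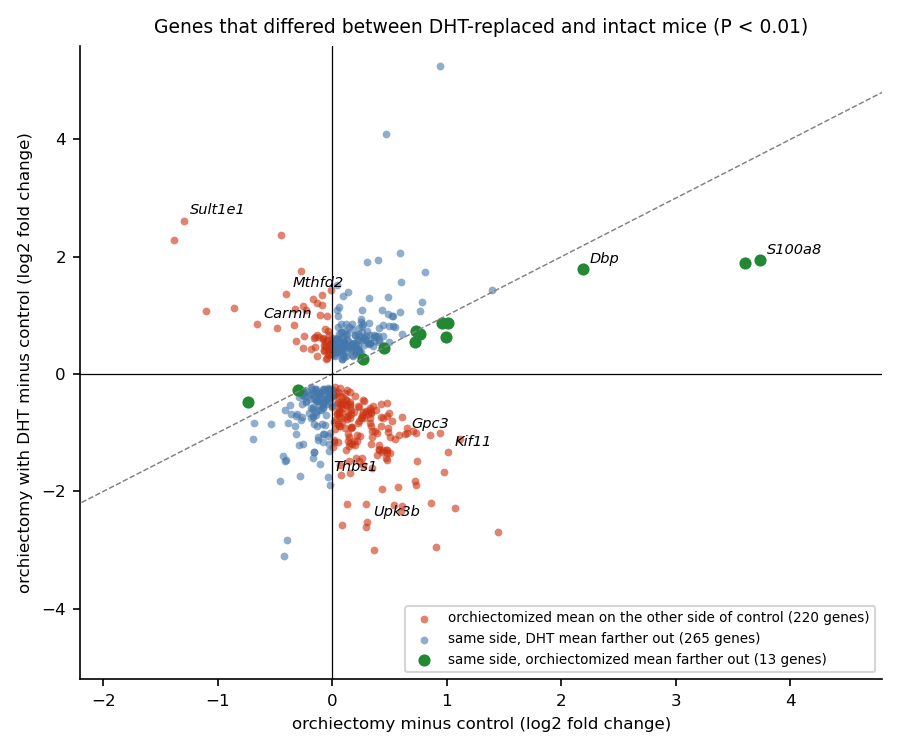
Each point is 1 of the 498 genes called between DHT-replaced and control mice, with the log2 fold change of orchiectomy against control on the x axis and that of orchiectomy with DHT against control on the y axis. Points on the dashed line have the same distance from control in both groups. Most points lie close to the vertical zero line, and the 13 green points, with *S100a8* and *S100a9* farthest out, are those in which the orchiectomized mean was farther from control than the DHT mean.

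Among the higher genes, the smallest P values belonged to *Vstm2b*, *Fam107a* and *Mthfd2*. *Vstm2b* (chr7:40898011-40930044, GRCm38), which encodes a membrane protein with an immunoglobulin domain, was at 3.08, 2.62, 3.23, 5.17 and 3.01 CPM in the control mice and at 16.0, 11.9, 12.2, 12.1 and 14.2 CPM with DHT. Every DHT library lay above every control library, by a log2 difference of 1.95 (standard error 0.22, adjusted P = 0.002985 by edgeR), and the orchiectomized libraries spanned 2.92 to 5.94 CPM. *Fam107a* (chr14:8296270-8317607), which encodes an actin-binding protein, was at 6.79, 8.62, 10.2, 13.8 and 10.4 CPM in the control mice and at 25.7, 26.4, 22.8, 25.8 and 33.7 CPM with DHT. Its orchiectomized mean, 9.92 ± 1.40 CPM, was close to the control mean of 9.97 ± 2.59 CPM (SD, n = 5), so the log2 difference of 1.43 (standard error 0.17, adjusted P = 0.002985 by edgeR) appeared under DHT only among these 3 groups. *Mthfd2* (chr6:83305704-83326011), the mitochondrial methylenetetrahydrofolate dehydrogenase, was at 19.4, 24.4, 22.3, 21.6 and 16.9 CPM in the control mice and at 58.2, 57.5, 55.8, 38.1 and 60.5 CPM with DHT. The lowest DHT library, replicate 4, was still above the highest control library, and the log2 difference was 1.37 (standard error 0.17, adjusted P = 0.002985 by edgeR).

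Several other higher genes act on hormones, vessels and muscle. *Sult1e1*, the estrogen sulfotransferase, was at 1.54, 2.62, 1.77, 2.97 and 1.83 CPM in the control mice and at 12.3, 27.7, 11.9, 6.17 and 8.07 CPM with DHT. The groups did not overlap, the log2 difference was 2.62 (standard error 0.49, adjusted P = 0.043 by edgeR), and the orchiectomized mean of 0.863 ± 0.761 CPM lay below the control mean (SD, n = 5). *Angpt4*, an angiopoietin ligand of the endothelial receptor encoded by *Tek*, was at 12.5 to 18.6 CPM in the control mice and at 34.3, 60.6, 71.8, 31.1 and 37.5 CPM with DHT, a log2 difference of 1.51 (standard error 0.27, adjusted P = 0.035 by edgeR). *Fbxl22*, an F-box protein of the muscle sarcomere, went from 104 ± 19.8 to 189 ± 29.7 CPM and *Rasgrp2*, an activator of the small GTPase Rap1, from 48.8 ± 7.96 to 78.5 ± 8.72 CPM (SD, n = 5). *Adamts14*, a procollagen propeptidase, had a log2 difference of 1.15 (standard error 0.21), *Adam11*, a disintegrin without protease activity, one of 1.00 (standard error 0.18), and *Ndp*, which encodes the Frizzled ligand norrin, one of 1.57 (standard error 0.30). *Vstm4*, *Tmem229b* and *Cpne7* were higher by 0.77, 0.87 and 1.75 on the log2 scale. In each of these genes the DHT and control libraries were separate. *Serpina3k*, a serine protease inhibitor gene named after its values were seen, had 0 to 0.626 CPM in the control mice and 3.34, 10.5, 8.59, 1.85 and 3.83 CPM with DHT.

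**Figure D2:**
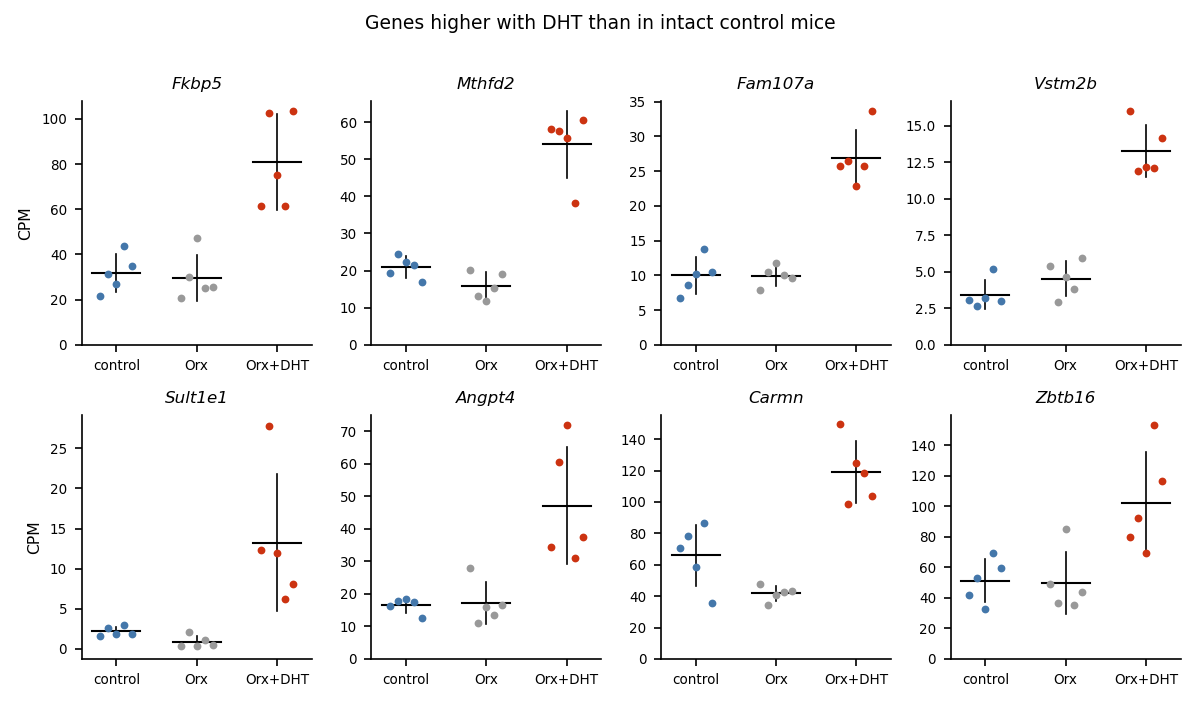
Expression in CPM (y axis) of 8 genes that were higher with DHT than in control mice, 1 point per mouse, for control, orchiectomized (Orx) and orchiectomized mice with DHT (Orx+DHT). Horizontal bars are means and vertical bars are SD of 5 mice, and in each of the 8 genes every DHT mouse lies above every control mouse.

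The promoter of *Fam107a* is shown because the gene had one of the smallest P values and its window holds the hexamer AGAACA in both orientations. This hexamer is the core of the element bound by the glucocorticoid receptor and related steroid receptors. The window is 1 of 3 that RefSeq starts give for the gene and covers 250 bases before to 50 after the start at chr14:8309730-8310029, minus strand, GRCm38.p6. Capitals mark AGAACA or its reverse complement, which lie 158 and 110 bases before the start.
Fam107a: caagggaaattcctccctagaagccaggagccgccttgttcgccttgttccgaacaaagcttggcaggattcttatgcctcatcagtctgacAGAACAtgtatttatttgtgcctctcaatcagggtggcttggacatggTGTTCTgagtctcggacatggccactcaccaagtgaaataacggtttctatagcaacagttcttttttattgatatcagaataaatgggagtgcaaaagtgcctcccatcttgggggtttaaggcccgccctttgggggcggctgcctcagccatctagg
AGAACA, searched on both strands, is in 19.0% of the 32851 promoter windows of all genes. Of the 16 higher genes with an adjusted P value under 0.05, 13 had a window, and 3 of their 17 windows (17.6%), those of *Fam107a* and *Ndp*, held it. Of the 21 lower genes, 12 had a window, and 1 of 14 (7.14%), that of *Dpp4*, held it. A match describes the letters and is not evidence of a bound site.

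Some corticosteroid receptor target genes were above the intact level. Of 15 such genes, all tested, 7 were called higher and 0 lower, against 1.52% of all genes called higher, and the median log2 difference was 0.50. Their summed level overlapped, at 1135 to 2109 CPM in the control mice and 1487 to 2347 CPM with DHT. *Fkbp5* (chr17:28398753-28486149), which encodes a co-chaperone of steroid receptors and is induced by androgens as well as by corticosteroids, was at 21.6, 31.3, 26.7, 43.6 and 34.8 CPM in the control mice and at 61.6, 103, 75.1, 61.5 and 104 CPM with DHT. The groups were separate, with a log2 difference of 1.35 (standard error 0.24, adjusted P = 0.035 by edgeR), while the orchiectomized mean of 29.7 ± 10.2 CPM was near the control mean of 31.6 ± 8.36 CPM (SD, n = 5). *Zbtb16*, a zinc finger transcription factor, went from 51.3 ± 14.3 to 102 ± 33.5 CPM (SD, n = 5), a log2 difference of 0.99 (adjusted P = 0.183 by edgeR). The metallothionein genes *Mt1* and *Mt2*, whose products bind zinc and copper, had log2 differences of 0.99 and 1.11, and *Mt2* was at 34.7 to 69.6 CPM in the control mice against 83.7 to 157 CPM with DHT. *Klf15*, a transcription factor of metabolic genes, went from 48.6 ± 10.2 to 70.8 ± 8.03 CPM (SD, n = 5), and *Errfi1*, a feedback inhibitor of the EGF receptor, had a log2 difference of 0.46. *Per1*, the other called member, is described with the clock genes. The remaining 8 members were not called, among them *Tsc22d3* (0.50), a glucocorticoid-induced leucine zipper gene, and *Sgk1* (0.28), a kinase gene induced by aldosterone, and 5 of the 15 lay below control. Between 5 and 7 members were called in the fits that left out 1 library. *Zbtb16* missed the threshold without DHT replicate 4 (log2 difference 0.79) and *Mt1* without DHT replicate 5 (0.82), and *Errfi1* passed in 6 of 15 such fits. The receptors themselves did not pass the test. *Nr3c1*, the glucocorticoid receptor gene, was at 206 ± 22.2 and 171 ± 25.5 CPM, and *Nr3c2*, the mineralocorticoid receptor gene, at 24.3 ± 3.76 and 22.4 ± 4.03 CPM in control and DHT mice (SD, n = 5). Corticosterone was not measured in these data, and its part in the difference was not tested.

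Of 17 serine and one-carbon enzymes, *Mthfd2* and *Cbs* were called higher and 0 lower, against 1.52% of all genes called higher, and the median log2 difference was -0.05. The serine synthesis genes *Phgdh* and *Psat1* lay at -0.37 and -0.34 and did not pass. *Shmt2*, which feeds the same mitochondrial folate pathway, was at 0.15 and did not pass. *Cbs*, cystathionine beta-synthase, was called with 2.32 ± 0.755 CPM in the control mice and 4.25 ± 0.779 CPM with DHT (SD, n = 5), and it was as high in the orchiectomized mice, at 4.52 ± 0.882 CPM. Of 21 tested genes of the amino acid stress response, 1 was called higher, against 1.52% of all genes, the amino acid transporter *Slc7a5*, which went from 15.7 ± 1.96 to 24.9 ± 4.93 CPM (SD, n = 5), a log2 difference of 0.67 (adjusted P = 0.081 by edgeR). None of 18 aminoacyl-tRNA synthetases was called (median -0.03). Of 9 polyamine genes, *Azin1*, the antizyme inhibitor, was called lower (-0.32), against 2.01% of all genes, in 6 of 15 fits that left out 1 library.

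The contractile genes of smooth muscle lay above the intact level with little support gene by gene. Of 22 genes, 21 had a positive log2 difference, with a median of 0.33, but 1 was called, against 1.52% of all genes called higher. That gene was *Carmn*, a long noncoding RNA that promotes the contractile state of smooth muscle, with 70.7, 78.1, 58.5, 86.3 and 35.9 CPM in the control mice and 149, 98.8, 124, 119 and 104 CPM with DHT. Its groups did not overlap, and the log2 difference was 0.85 (standard error 0.19, adjusted P = 0.088 by edgeR). After orchiectomy it was below control, by a log2 difference of -0.66 that was called, so its mean was on the opposite side of control in the other orchiectomized group. The myosin heavy chain gene *Myh11* lay at 0.39 (95% interval -0.08 to 0.86) and the smooth muscle actin gene *Acta2* at 0.30 (-0.06 to 0.66), while *Myocd*, which encodes the coactivator myocardin, lay at -0.30. The number called was 2 without control replicate 2, orchiectomized replicate 4 or DHT replicate 4, 4 without orchiectomized replicate 1 and 6 without orchiectomized replicate 2. The number was also 6 when the orchiectomized libraries were left out of the fit or with limma voom, 4 with DESeq2 and 3 with a filter of at least 10 counts in every library. The summed level of the 22 genes was 24154 to 34357 CPM in the control mice and 32908 to 40902 CPM with DHT.

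Of the gene lists with at least 5 tested members, that of mesothelium, the squamous layer that covers serosal surfaces, had the lowest median with DHT. Of 12 mesothelial markers 11 were tested, and 8 were called lower and 0 higher, against 2.01% of all genes called lower, with a median log2 difference of -2.22. *Upk3b* (chr5:136038496-136044993), a uroplakin gene, was at 42.1, 16.0, 16.0, 26.6 and 46.5 CPM in the control mice and at 4.10, 8.92, 3.33, 4.32 and 4.65 CPM with DHT. Every DHT library was lower than every control library (log2 difference -2.53, standard error 0.35, adjusted P = 0.012 by edgeR), while the orchiectomized libraries, at 22.8 to 46.8 CPM, overlapped the control libraries. *Lrrn4*, a leucine-rich repeat membrane protein gene, was at 3.56 to 9.31 CPM in the control mice and 0.385 to 1.98 CPM with DHT. *Bnc1*, a zinc finger transcription factor gene, was at 0.938 to 3.53 CPM in the control mice and 0 to 0.617 CPM with DHT, a log2 difference of -3.00 (standard error 0.56, adjusted P = 0.043 by edgeR). *Msln*, which encodes mesothelin, went from 14.3 ± 5.02 to 2.87 ± 2.00 CPM, *Wt1*, a transcription factor of mesothelium, from 2.49 ± 1.35 to 0.514 ± 0.377 CPM, and *Upk1b* from 5.27 ± 3.00 to 1.15 ± 0.679 CPM (SD, n = 5). *Gpm6a* and *Nkain4* were lower by smaller amounts, with log2 differences of -1.33 and -1.07. The keratin gene *Krt19*, at -1.83, did not pass, although its libraries did not overlap, with 4.07 to 10.5 CPM in the control mice and 1.11 to 3.87 CPM with DHT. Orchiectomized replicate 2 had 209 CPM of *Krt19*, and without that library the gene passed (adjusted P = 0.045 by edgeR). Summed over the list, the control libraries held 138, 71.7, 68.1, 111 and 151 CPM and the DHT libraries 32.2, 54.4, 29.4, 24.9 and 31.0 CPM. Leaving out 1 library gave 7 to 10 called members, with *Nkain4* lost without DHT replicate 1 (-0.96), and a filter of at least 10 counts in every library left 4. How much mesothelium each dissected aorta carried was not measured, and its part in the difference was not tested.

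Several adventitial fibroblast markers were lower as well. Of 15 such genes, 7 were called lower and 0 higher, against 2.01% of all genes called lower, with a median log2 difference of -0.46. *Dpp4* (chr2:62330073-62412315), a surface peptidase of fibroblast progenitors, was at 15.3, 8.99, 9.28, 13.2 and 20.0 CPM in the control mice and at 3.68, 5.86, 2.44, 2.72 and 2.28 CPM with DHT. The groups were separate, with a log2 difference of -1.96 (standard error 0.34, adjusted P = 0.032 by edgeR). *Gpc3*, which encodes the heparan sulfate proteoglycan glypican-3, was at 70.9, 73.0, 83.6, 108 and 91.2 CPM in the control mice, at 113, 161, 158, 136 and 94.6 CPM in the orchiectomized mice and at 40.4, 63.8, 34.9, 32.1 and 38.6 CPM with DHT. It was thus above control after orchiectomy (0.64, called) and below control with DHT (-1.02, adjusted P = 0.046 by edgeR), and the DHT and control libraries did not overlap. *Ackr3*, a scavenging receptor for the chemokine Cxcl12, went from 133 ± 21.9 to 65.8 ± 11.5 CPM, *Fap*, the fibroblast activation protein gene, from 8.63 ± 2.53 to 4.14 ± 1.02 CPM, and *Pi16*, a marker of adventitial progenitors, from 410 ± 49.0 to 289 ± 39.1 CPM (SD, n = 5). *Pdgfra*, the most widely used fibroblast marker of the list, was at -0.46 and did not pass (95% interval -1.01 to 0.09). The summed level of the 15 genes, 3958 to 4892 CPM in the control mice and 2890 to 4593 CPM with DHT, overlapped between the groups. Between 5 and 9 members were called when 1 library was left out.

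Genes of the extracellular matrix were lower in part. *Lum*, which encodes the collagen-binding proteoglycan lumican, was at 107, 135, 130, 190 and 132 CPM in the control mice and at 49.7, 84.7, 56.3, 30.1 and 36.0 CPM with DHT, with no overlap (log2 difference -1.43, standard error 0.27, adjusted P = 0.043 by edgeR). *Col12a1*, a fibril-associated collagen gene, was at 25.2, 36.2, 34.8, 36.5 and 36.5 CPM in the control mice and at 14.1, 14.8, 13.5, 18.6 and 13.3 CPM with DHT, also with no overlap (-1.19, standard error 0.21, adjusted P = 0.035 by edgeR). Of 23 collagen chains, 3 were called lower and 0 higher, against 2.01% of all genes called lower (median -0.18), the others being *Col8a1* (-0.89) and *Col14a1*, which went from 236 ± 54.7 to 97.9 ± 17.4 CPM (SD, n = 5). The number was 5 without control replicate 1 or DHT replicate 2. Of 21 elastic fiber genes, 6 were called lower and 0 higher, against the same 2.01% (median -0.12). They were the fibulin genes *Fbln1*, *Fbln2* and *Efemp1*, *Emilin2*, the microfibril gene *Mfap5* and *Loxl2*, a lysyl oxidase that crosslinks matrix. *Fbln2* went from 190 ± 30.8 to 108 ± 17.8 CPM and *Loxl2* from 69.8 ± 10.2 to 46.1 ± 6.51 CPM (SD, n = 5). *Eln*, the gene of elastin itself, lay at -0.11 and did not pass. The number was 3 without control replicate 4 or DHT replicates 4 or 5. Of 12 small leucine-rich proteoglycans, *Lum* and *Epyc*, a low gene with 0 to 0.769 CPM with DHT, were called lower, against 2.01% of all genes. *Epyc* passed in 6 of 15 fits that left out 1 library.

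*Thbs1* (chr2:118111876-118127133), which encodes thrombospondin-1, an activator of latent TGF-beta, was at 114, 289, 212, 232 and 162 CPM in the control mice and at 52.9, 80.6, 73.6, 49.99 and 41.3 CPM with DHT. All DHT libraries lay below all control libraries, by a log2 difference of -1.76 (standard error 0.29, adjusted P = 0.029 by edgeR), and the orchiectomized mean of 196 ± 78.6 CPM was close to the control mean of 202 ± 67.0 CPM (SD, n = 5). Of 18 tested TGF-beta genes 2 were called lower, against 2.01% of all genes. The other was *Tgfbi*, a secreted target of the pathway, at -0.91, and the list's median was -0.11. *Tgfbi* passed in 12 of 15 fits that left out 1 library and not without control replicate 4 or DHT replicates 4 or 5. Of 21 metalloproteinases and inhibitors, 3 were called lower and 1 higher, against 2.01% and 1.52% of all genes. The lower members were the gelatinase gene *Mmp2*, which went from 136 ± 17.1 to 96.8 ± 17.4 CPM, the stromelysin gene *Mmp3*, from 131 ± 34.1 to 71.7 ± 15.7 CPM, and the aggrecanase gene *Adamts4*, from 9.31 ± 1.68 to 5.24 ± 1.46 CPM (SD, n = 5). The higher member was *Adamts15*, a versican-cleaving protease, from 57.1 ± 13.3 to 99.1 ± 21.5 CPM (SD, n = 5). Without control replicate 5 or DHT replicate 5, 2 members were called. *Gdf6*, a bone morphogenetic protein gene, was at 4.78 to 10.5 CPM in the control mice and 0.207 to 1.62 CPM with DHT, a log2 difference of -2.83 (standard error 0.46, adjusted P = 0.029 by edgeR). Among other genes with the smallest P values, *Arsi*, a sulfatase gene, was at 3.17 to 6.16 CPM in the control mice and 0.941 to 1.73 CPM with DHT (log2 difference -1.89, adjusted P = 0.020 by edgeR). *Rftn1*, which encodes the lipid raft protein raftlin, went from 29.0 ± 3.73 to 15.7 ± 2.11 CPM (SD, n = 5). *Emp1*, an epithelial membrane protein gene, went from 201 ± 49.8 to 90.1 ± 25.8 CPM and *Pkhd1l1*, a large membrane protein gene, from 14.5 ± 4.99 to 4.50 ± 1.96 CPM (SD, n = 5). The last pair are the 2 of the 37 genes whose DHT and control libraries overlapped. *Igfbp5*, an insulin-like growth factor binding protein, was the called member of 14 genes of that family, against 2.01% of all genes called lower, from 892 ± 147 to 552 ± 128 CPM (SD, n = 5), and it passed in 9 of 15 fits that left out 1 library.

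**Figure D3:**
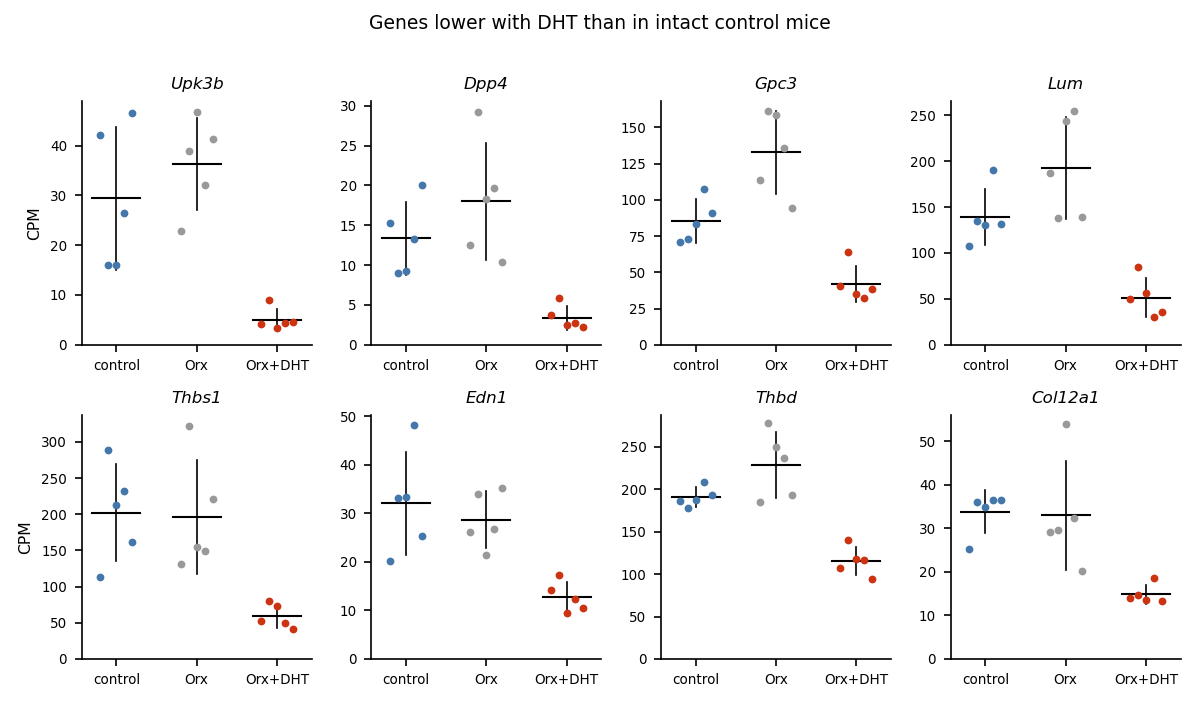
Expression in CPM (y axis) of 8 genes that were lower with DHT than in control mice, 1 point per mouse, for control, orchiectomized (Orx) and orchiectomized mice with DHT (Orx+DHT). Horizontal bars are means and vertical bars are SD of 5 mice, and every DHT mouse lies below every control mouse, while the orchiectomized mice overlap the control mice in each gene.

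*Thbd*, *Edn1* and *Nos3*, expressed by endothelium, were lower with DHT. *Thbd*, which encodes thrombomodulin, the endothelial cofactor of protein C activation, was at 187, 177, 187, 209 and 194 CPM in the control mice and at 108, 140, 118, 117 and 94.6 CPM with DHT. The groups were separate (log2 difference -0.73, standard error 0.13, adjusted P = 0.032 by edgeR), and the orchiectomized libraries, at 185 to 278 CPM, were all above the DHT libraries. *Edn1* (chr13:42301476-42307990), which encodes the vasoconstrictor endothelin-1, was at 20.1, 33.2, 33.5, 48.3 and 25.3 CPM in the control mice and at 14.2, 17.3, 9.49, 12.3 and 10.4 CPM with DHT, with no overlap (-1.33, standard error 0.23, adjusted P = 0.032 by edgeR). *Nos3*, the endothelial nitric oxide synthase, went from a range of 45.5 to 63.6 CPM in the control mice to 29.1 to 44.5 CPM with DHT, a log2 difference of -0.68 (standard error 0.13, adjusted P = 0.046 by edgeR). *Edn1* was the called member of 20 tested renin-angiotensin and vasoconstrictor receptor genes (median -0.09) and *Nos3* that of 11 natriuretic peptide and cyclic GMP genes, 8 of which lay above control (median 0.11), against 2.01% of all genes called lower. In the first list 2 genes were called without control replicate 1, orchiectomized replicate 2 or DHT replicate 1 and 3 without DHT replicate 4, and in the other 2 without control replicate 4. Of 18 endothelial markers, 5 were called lower and 0 higher, against 2.01% of all genes called lower (median -0.22). Besides *Thbd* these were *Tek*, the angiopoietin receptor gene, from 69.5 ± 14.2 to 41.0 ± 6.62 CPM, *Vwf*, the von Willebrand factor gene, from 218 ± 65.8 to 130 ± 31.9 CPM, the phosphatase gene *Ptprb* and the adhesion molecule gene *Pecam1*, from 327 ± 54.0 to 236 ± 28.1 CPM (SD, n = 5). The call of *Vwf* was lost without control replicate 4 (-0.60). *Cdh5*, which encodes the defining cadherin of endothelial junctions, was at 133 ± 36.0 and 115 ± 31.9 CPM (SD, n = 5) and did not pass (95% interval of the log2 difference -0.73 to 0.31), and *Cldn5* lay at 0.18. The summed markers were at 1476 to 2059 CPM in the control mice and 1246 to 1552 CPM with DHT, and their part in the lower *Edn1* and *Nos3* was not tested. Of 20 potassium channel genes *Kcnk6* was called lower (-0.50), against 2.01% of all genes, in 9 of 15 fits that left out 1 library. The number of channel genes called ran from 0 to 2 over these fits and was 2 with limma voom.

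Of 25 cytokine genes 17 were tested, and 3 were called lower and 0 higher (median -0.42), against 2.01% of all genes called lower, in each of the 15 fits that left out 1 library. The monocyte chemoattractant gene *Ccl2* was at 4.71, 3.93, 4.69, 5.88 and 5.29 CPM in the control mice and at 1.37, 2.52, 2.56, 1.60 and 1.03 CPM with DHT. All DHT libraries lay below all control libraries (log2 difference -1.43, standard error 0.29, adjusted P = 0.051 by edgeR). The neighboring chemokine gene *Ccl7* was at -1.54 and the alarmin gene *Il33* went from 36.5 ± 7.11 to 23.2 ± 3.23 CPM (SD, n = 5). *Il6*, which encodes interleukin-6, was too low to test, its control libraries holding 0 to 11 counts and its DHT libraries 0 to 1. Of 16 macrophage markers 15 lay below control and 0 were called, with a median of -0.49. The summed macrophage markers, at 487 to 1177 CPM in the control mice and 483 to 846 CPM with DHT, overlapped, and their part in the lower chemokine genes was not tested.

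The 27 genes called in both orchiectomized groups against control fell into those that moved to opposite sides of control and those that moved to the same side. Between orchiectomized and control mice 454 genes (3.22%) were called, 294 higher and 160 lower. Of these, 7 were called in the opposite direction in the DHT mice and 20 in the same direction. The 294 higher genes had a median log2 difference from control of 1.25 after orchiectomy and 0.012 with DHT, and the 160 lower genes one of -0.85 and -0.20. The groups share the control mice, so these values describe the position of each group and are not independent of each other.

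The 7 genes on opposite sides of control were *Gpc3*, *Mmp2*, *Carmn*, *Kif11*, *Top2a* and, named after their values were seen, *Dlgap5* and *Ibsp*. *Kif11*, a motor of the mitotic spindle, was at 1.63, 2.06, 2.61, 2.55 and 3.38 CPM in the control mice, at 3.42 to 8.39 CPM after orchiectomy and at 0.941, 1.62, 0.641, 0.741 and 0.827 CPM with DHT. All DHT libraries lay below all control libraries, and all orchiectomized libraries lay above them (log2 differences -1.33 and 1.01). *Top2a*, which encodes the topoisomerase of dividing cells, was at 7.39 ± 2.34 CPM in the control mice, 14.2 ± 5.97 CPM after orchiectomy and 3.66 ± 1.13 CPM with DHT, and *Dlgap5*, a spindle protein gene, at 0.824 ± 0.239, 1.80 ± 0.609 and 0.379 ± 0.132 CPM (SD, n = 5). *Top2a* passed against control in 7 of 15 fits that left out 1 library, *Dlgap5* in 8 and *Mmp2* in 9, and all 3 calls were lost with limma voom. Of 31 tested replication and mitosis genes, 29 lay below control with DHT (median -0.41), and *Kif11*, *Top2a* and *Rrm1*, a subunit of ribonucleotide reductase, were called lower, against 2.01% of all genes. The number called was 6 without control replicate 1, 5 without DHT replicate 2 and 1 without control replicates 2, 4 or 5 or DHT replicates 3 or 5. *Ibsp*, a mineral-binding matrix protein gene, moved the other way, from 2.66 ± 0.870 CPM in the control mice to 1.25 ± 0.513 CPM after orchiectomy and 5.59 ± 0.630 CPM with DHT (SD, n = 5).

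On the same side of control in both orchiectomized groups were 20 genes, 16 higher and 4 lower. They numbered 13 without control replicate 2, control replicate 5 or DHT replicate 5 and 54 without control replicate 4 or DHT replicate 4. Ordered by the larger of their P values against control, the named genes among them were led by the clock genes *Dbp*, *Tef* and *Per1*. *Dbp* (chr7:45705100-45710203), a clock output transcription factor, was at 14.1, 6.09, 4.59, 15.5 and 4.65 CPM in the control mice, at 56.2, 28.1, 32.7, 52.3 and 37.3 CPM after orchiectomy and at 44.6, 30.0, 31.1, 25.1 and 26.3 CPM with DHT. Both orchiectomized groups lay wholly above the control mice, by log2 differences of 2.19 after orchiectomy and 1.79 (standard error 0.34, adjusted P = 0.046 by edgeR) with DHT, and the DHT and untreated orchiectomized mice did not pass the test against each other (-0.39). *Tef*, a related transcription factor, was at 92.6 ± 14.3, 153 ± 21.9 and 135 ± 12.2 CPM, and *Per1*, a repressor of the clock, at 25.2 ± 2.12, 50.6 ± 13.2 and 45.8 ± 13.4 CPM in control, orchiectomized and DHT mice (SD, n = 5). *Per3*, another repressor, had a log2 difference of 0.63 with DHT and 0.99 after orchiectomy, and passed in 10 of 15 fits that left out 1 library. *Arntl* (*Bmal1*), the activator that peaks in the opposite phase, was at 42.7, 59.2, 45.0, 53.7 and 51.2 CPM in the control mice, at 25.0, 26.9, 33.0, 28.3 and 37.6 CPM after orchiectomy and at 41.4, 37.0, 32.6, 35.5 and 33.4 CPM with DHT. Its DHT libraries were all below its control libraries (log2 difference -0.48, adjusted P = 0.137 by edgeR).

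Of 14 clock repressors and genes in phase with *Dbp*, 5 were called higher with DHT and 0 lower, against 1.52% of all genes called higher, with a median of 0.40 against 0.61 after orchiectomy. The fifth was *Ciart*, a clock repressor with 1.12 ± 0.376 CPM in the control mice and 2.35 ± 0.794 CPM with DHT (SD, n = 5), which passed in 11 of 15 fits that left out 1 library. Without control replicates 2 or 3 or DHT replicate 1, 3 were called. *Nr1d1* and *Nr1d2*, the genes of the REV-ERB repressors, lay at 0.39 and 0.41 and did not pass. Of 6 activators and genes in phase with *Arntl*, *Arntl* was called lower, against 2.01% of all genes, and all 6 lay below control (median -0.30). Without control replicate 4 or DHT replicate 4, 2 were called. The hour of harvest is not given in the sources used here, so hour and treatment cannot be told apart for these genes.

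The promoters of *Ciart*, *Tef* and *Per3* are shown because they hold the elements through which clock genes are known to be timed. These are the E-box CACGTG, bound by Arntl with Clock, and the D-box TTATGTAA, bound by Dbp and Tef. Each window covers 250 bases before to 50 after a RefSeq start in GRCm38.p6, and capitals mark the element. *Ciart* (chr3:95882179-95882478, minus strand) holds the E-box 116, 58 and 44 bases before the start, *Tef* (chr15:81802423-81802722, plus strand) 127 bases before it, and *Per3* (chr4:151044616-151044915, minus strand) holds the D-box 205 and 158 bases before it.
Ciart: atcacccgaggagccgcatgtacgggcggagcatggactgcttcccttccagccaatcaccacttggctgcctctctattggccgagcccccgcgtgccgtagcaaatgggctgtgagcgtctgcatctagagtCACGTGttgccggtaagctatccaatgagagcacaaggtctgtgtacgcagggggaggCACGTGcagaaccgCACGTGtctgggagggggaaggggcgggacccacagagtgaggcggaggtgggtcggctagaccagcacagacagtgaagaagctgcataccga
Tef: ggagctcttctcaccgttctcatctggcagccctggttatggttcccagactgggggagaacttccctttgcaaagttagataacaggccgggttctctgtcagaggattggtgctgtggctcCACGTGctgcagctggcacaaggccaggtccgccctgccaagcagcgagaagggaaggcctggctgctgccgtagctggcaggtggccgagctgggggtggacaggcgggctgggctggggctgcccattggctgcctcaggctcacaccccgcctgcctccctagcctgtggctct
Per3: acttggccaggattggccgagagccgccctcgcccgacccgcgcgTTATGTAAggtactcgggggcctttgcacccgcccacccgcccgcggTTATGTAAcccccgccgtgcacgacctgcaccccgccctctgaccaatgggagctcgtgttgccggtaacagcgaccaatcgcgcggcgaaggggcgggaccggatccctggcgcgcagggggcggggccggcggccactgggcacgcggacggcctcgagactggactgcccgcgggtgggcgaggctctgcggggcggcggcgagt
Searched on both strands, CACGTG is in 7.15% of all promoter windows and TTATGTAA in 0.938%. All 6 called clock genes had windows, and 4 of their 9 windows (44.4%), in *Ciart*, *Per1* and *Tef*, held CACGTG, while 1 of 9 (11.1%), that of *Per3*, held TTATGTAA. The genes were chosen as clock genes, so the share describes them only.

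Other genes on the same side of control in both groups were outside the lists of clock genes. Hour of harvest and treatment cannot be told apart for them either. *Pik3ip1*, an inhibitor of phosphoinositide 3-kinase, was at 24.0, 19.2, 23.7, 29.6 and 22.7 CPM in the control mice, at 32.9 to 46.5 CPM after orchiectomy and at 46.8, 39.7, 30.6, 29.3 and 45.6 CPM with DHT. It differed from control by log2 values of 0.77 and 0.69, and 1 DHT library lay within the control range. *Tcap*, which encodes the sarcomere protein telethonin, went from 40.6 ± 11.7 CPM in the control mice to 107 ± 83.3 CPM after orchiectomy and 110 ± 28.6 CPM with DHT (SD, n = 5). *Trim7*, a ubiquitin ligase gene, was higher by 0.73 in both groups and passed in 10 of 15 fits that left out 1 library, and *Naa30*, an N-terminal acetyltransferase gene, had a log2 difference of -0.27 with DHT, a call lost without control replicate 1. The calprotectin genes *S100a8* and *S100a9*, the most abundant products of neutrophils, were at 0.104 to 0.730 and 0.0937 to 1.09 CPM in the control mice, at 1.44 to 9.56 and 2.34 to 13.3 CPM after orchiectomy and at 0.631 to 3.62 and 0.901 to 6.00 CPM with DHT. The DHT libraries overlapped the control libraries, DHT replicate 5 was the highest of its group in both, and each passed in 8 of 15 fits that left out 1 library. Both calls were also lost with limma voom and with a filter of at least 10 counts in every library, under which neither gene was tested. Of 11 neutrophil markers 5 were tested and these 2 were called higher, against 1.52% of all genes, and the summed level was 3.65 to 4.84 CPM in the control mice and 4.77 to 14.9 CPM with DHT.

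**Figure D4:**
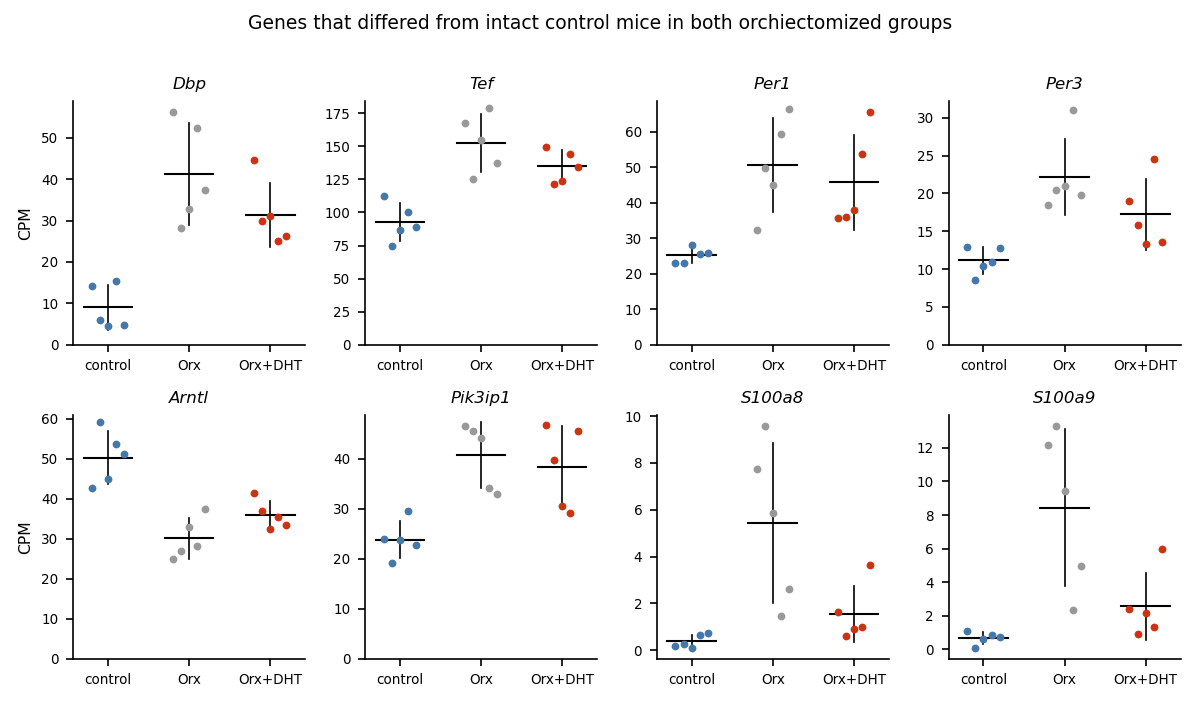
Expression in CPM (y axis) of 8 genes called against control in both orchiectomized groups, 1 point per mouse, for control, orchiectomized (Orx) and orchiectomized mice with DHT (Orx+DHT). Horizontal bars are means and vertical bars are SD of 5 mice, and *Dbp*, *Tef*, *Per1*, *Per3* and *Arntl* show no overlap between control and DHT mice, whereas *Pik3ip1*, *S100a8* and *S100a9* do.

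Several other gene groups had few or no members called with DHT. Of 22 genes of fatty acid and triglyceride synthesis, 13 were called lower after orchiectomy (median -1.08) and 0 were called with DHT (median -0.17), where 3.22% and 3.53% of all genes were called in these comparisons. *Fasn*, the fatty acid synthase gene, was at 8480, 5174, 11150, 2611 and 5885 CPM in the control mice and at 3420, 3030, 4841, 11668 and 6011 CPM with DHT. The groups overlapped widely, with a log2 difference of -0.20 (95% interval -1.12 to 0.72). Of 19 cholesterol genes, *Idi1*, an isomerase of the pathway, was called lower with DHT, against 2.01% of all genes, at -0.83 and in 9 of 15 fits that left out 1 library, against 5 called after orchiectomy. The number of cholesterol genes called with DHT ran from 0 to 3 over these fits. It was 3 with limma voom, 2 with DESeq2 and 0 with the replicate block. Of 26 T cell markers 14 were tested, with 11 called after orchiectomy and 0 with DHT (median 1.80 and -0.40). Of 14 B cell markers 10 were tested, with 8 and 0 called (median 3.03 and -0.19), beside the same shares of all genes. Low members can pass the expression filter mainly through orchiectomized libraries where they were high, so nothing is read from the counts after orchiectomy. The orchiectomized libraries were uneven, with summed T cell markers at 92.5 to 153 CPM and B cell markers at 64.0 to 250 CPM in replicates 2, 3 and 4, but 21.7 and 34.9 CPM and 11.3 and 19.9 CPM in replicates 1 and 5. The control libraries spanned 14.6 to 30.6 and 7.15 to 17.5 CPM and the DHT libraries 12.9 to 17.7 and 5.73 to 15.9 CPM. *Cd3e*, a subunit of the T cell receptor complex, was at 0.724, 0.937, 1.04, 0.850 and 1.37 CPM in the control mice and at 0.0855, 0.631, 0.385, 1.48 and 0.724 CPM with DHT, with an interval of the log2 difference from -1.93 to 0.73. *Pdcd1*, which encodes PD-1, was too low to test, its control libraries holding 2 to 4 counts and its DHT libraries 2 to 6. The lists of steroid receptors and converting enzymes, endoplasmic reticulum chaperones, heat shock, interferon-stimulated and immediate early genes had 0 members called with DHT and 0 or 1 called after orchiectomy, and their medians with DHT lay between -0.12 and 0.08. With intervals as wide as these, the absence of a call does not show that a gene returned to the intact level.

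**Figure D5:**
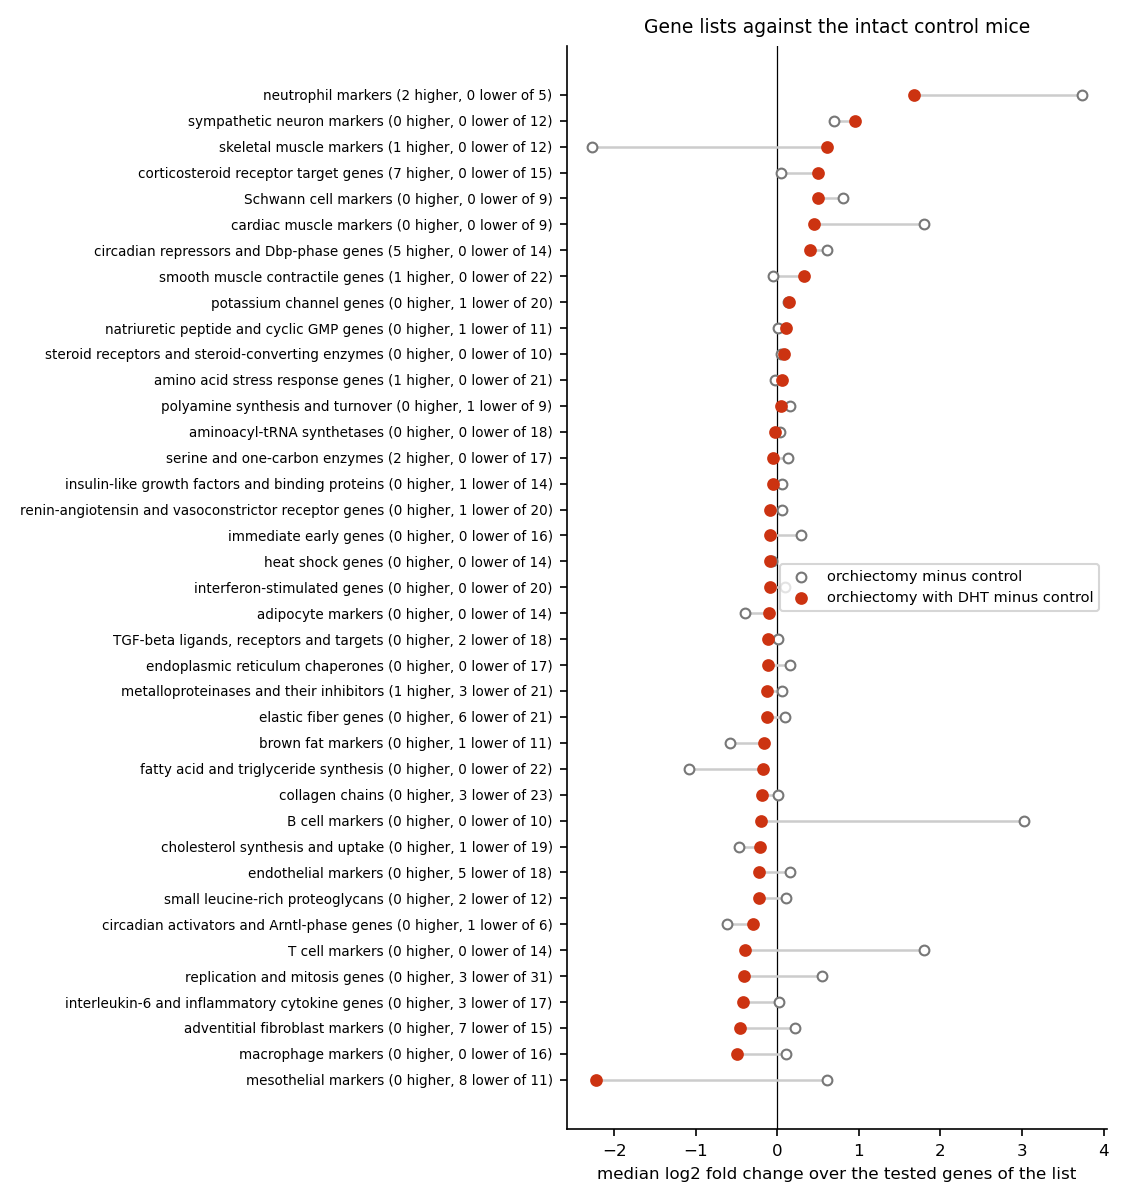
Each row is a gene list with at least 5 tested genes, and the x axis is the median log2 fold change from control over those genes, for orchiectomized mice with DHT (filled circles) and orchiectomized mice (open circles). The counts beside each name are genes called with DHT at P under 0.01. Mesothelial markers lie farthest below control with DHT (-2.22). The highest medians with DHT are those of neutrophil (1.68), sympathetic neuron (0.95) and skeletal muscle markers (0.61), followed by corticosteroid targets (0.50). T and B cell markers, above 1 after orchiectomy, lie below 0 with DHT.

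Markers of tissue around the vessel varied between single libraries. Sympathetic neuron markers, none of 12 called and all 12 above control (median log2 difference 0.95), summed to 43.1 to 780 CPM in the control mice and 18.0 to 1622 CPM with DHT, where replicate 5 was highest. Skeletal muscle markers summed to 55.0 to 745 CPM and 111 to 648 CPM. Of these 12 genes 1 was called higher, against 1.52% of all genes, and that call was lost with limma voom. It was *Myh2*, a fast myosin (log2 difference 5.26, adjusted P = 0.093 by edgeR), with 0 to 2.08 CPM in the control mice and 0, 6.13, 59.4, 69.6 and 23.8 CPM with DHT, so the libraries overlapped. Cardiac muscle markers (0 of 9 called) were at 165 to 1740 CPM and 286 to 1122 CPM, Schwann cell markers (0 of 9) at 91.6 to 236 CPM and 101 to 410 CPM, and adipocyte markers (0 of 14) at 4941 to 12348 CPM and 5384 to 10548 CPM. Of 11 brown fat markers, *Dio2*, the deiodinase that activates thyroid hormone, was called lower, against 2.01% of all genes, at 210, 123, 160, 143 and 209 CPM in the control mice and 47.6, 50.4, 65.9, 87.0 and 69.5 CPM with DHT. Its groups did not overlap (-1.40, adjusted P = 0.055 by edgeR), while *Ucp1*, the defining gene of brown fat, lay at -0.16. Adrenal cortex markers had 1 of 8 genes tested and erythroid markers 2 of 7, and none was called.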

How the data were processed

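The authors deposited raw counts of reads per gene symbol for each of the 15 poly(A)-selected libraries, as whole numbers with no normalization. The submitters' processing notes name STAR, Cufflinks, DESeq2 and the mm10 genome, without versions or roles. The counting program and annotation are not given in the sources used here. Entries for reads with no feature (6.26% to 14.4%) or an ambiguous one (1.34% to 1.97%) were left out. The 24982 gene symbols were filtered with filterByExpr (minimum count 10, minimum total count 15), leaving 14121, normalized by TMM and fitted with edgeR 4.0.16 (quasi-likelihood, R 4.3.3) to the 3 groups with no covariate. The biological coefficient of variation was 0.297. P values rest on a spread between mice within groups, estimated for each gene over all 15 libraries and moderated across genes. The method was tested on simulated data.

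Calls used P under 0.01, the study's threshold, and Benjamini-Hochberg values over all genes tested. Alternatives were DESeq2 1.42.0, RLE size factors, filters (at least 1 count, or 10 in every library), only the 10 control and DHT libraries, a robust fit, limma 3.58.1 voom, a replicate block and leaving out each library. The list counts under these fits were added after the data were seen.

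Genes named are the 15 with the smallest P in each direction, the 4 smallest per position class, up to 10 called in both orchiectomized groups on the same side, called members of 41 lists and 10 defining genes. Predicted genes (names in Rik or Gm) are not named. A defining gene is not reported here. List members named although not called were chosen after their values were seen. The comparison, the genes and the lists were chosen with earlier results of these data known. Gene positions are from GENCODE vM21 and promoter windows from RefSeq (GRCm38.p6, the assembly of mm10).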

Additional observations from a re-analysis of the deposited data

Results flagged for a closer look

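In groups of 5 mice, a single library was set apart where its gap to the nearest other library exceeded the 95% limit of Dixon's test over the group's range on the log2 scale. Of 226 groups tested for the genes and lists above, 8 were set apart, fewer than the 1 in 20 that chance gives, and none of the 8 was weighed further.

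Among the higher genes, *Mthfd2* was at 38.1 CPM in DHT replicate 4 against 55.8 to 60.5 CPM in the other DHT mice, which was still above the control mice. *Cpne7*, a copine gene, was at 6.13 CPM in DHT replicate 2 against 2.05 to 2.79 CPM in the other DHT mice. *Klf15* was at 66.5 CPM in control replicate 1 against 40.6 to 46.5 CPM in the other control mice, within the range of the DHT mice. *Ibsp* was at 4.49 CPM in DHT replicate 3 against 5.73 to 6.04 CPM.

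Among the lower genes, *Ackr3* was at 95.8 CPM in control replicate 2 against 132 to 147 CPM in the other control mice, and *Col12a1* at 25.2 CPM in control replicate 1 against 34.8 to 36.5 CPM. *Emilin2* was at 32.6 CPM in DHT replicate 2 against 21.1 to 23.5 CPM in the other DHT mice. The summed cardiac muscle markers were at 1740 CPM in control replicate 5 against 165 to 267 CPM in the other control mice.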

How the results depend on the processing

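With DESeq2 and the same filter, 326 genes were higher at P under 0.01, 108 higher and 122 lower at an adjusted P value under 0.05, 20 short of control and 33 on the same side of control in both orchiectomized groups. Testing all genes with at least 1 count left 7 higher and 12 lower genes after adjustment. Fitting only the control and DHT libraries gave 341 higher genes, and 29 higher and 32 lower after adjustment. With limma voom and quality weights 501 genes were higher and 491 lower, 84 and 72 after adjustment, with 726 farther out than the orchiectomized mean, 26 short of control and 68 on the same side in both groups. With the replicate block 5 higher and 4 lower genes remained after adjustment and 12 genes on the same side in both groups. Same-numbered control and DHT libraries deviated from their group means with correlations from -0.27 to 0.26. So few correlations cannot show whether the replicate numbers pair the mice or mark a shared batch. The higher share of calls, 43.0% in the main fit, was 53.1% with a filter of at least 10 counts in every library. It was 51.4% with only the control and DHT libraries, 50.5% with voom, 47.4% with DESeq2 and 40.3% with the replicate block. Leaving out 1 library gave 34.1% to 51.0%.

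Leaving out each library in turn gave 115 to 321 higher and 168 to 360 lower genes at P under 0.01, and 3 to 41 higher and 0 to 61 lower after adjustment. The count past control ranged from 138 to 284, farther out from 126 to 436, short of control from 7 to 31, and on the same side in both groups from 13 to 54. No called gene that is named changed direction under the alternatives run. *Fasn* and *Ucp1*, which were not called, changed sign without control replicate 3 (0.055 and 0.043), and *Ucp1* also without control replicate 1. Calls were lost with voom for *Per3*, *Efemp1*, *Emilin2*, *Mmp2*, *Tgfbi*, *Top2a*, *S100a8*, *S100a9*, *Vwf*, *Pi16*, *Fap*, *Myh2* and *Dlgap5*, and with the replicate block for *Trim7*, *Azin1*, *Emilin2*, *Mfap5*, *Mmp2*, *Adamts4*, *Idi1*, *Rrm1*, *S100a8*, *S100a9*, *Myh2* and *Dlgap5*. *Dlgap5* was also lost with DESeq2 and, like *Epyc*, when all genes with at least 1 count were tested, and *Azin1* when only control and DHT libraries were fitted. Of 93 called genes named or examined, 67 were called in each of these 15 fits. The cause of these changes was not tested. With 5 mice a group, a gene that was not called may still differ within its printed interval, and genes near 1 CPM rest on about 10 counts per library.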
